A study of Homo sapiens with 9 samples.

Results

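The 547 sites described here are p65 binding sites of 786-O cells that had a p65 peak in the control, the vehicle and the siTEAD4-labelled cells and none in the XMU-MP-1 cells. They were taken from 15432 control peaks on chromosomes 1 to 22 and X (15465 in all), by an overlap of 1 bp or more with the other peak lists. Of those control peaks 12268 also had a vehicle peak, and the 547 sites were 4.46% of these. A peak of the TEAD chromatin immunoprecipitation lay at 352 of the 547 sites and at none of the other 195, and this division is kept throughout.

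786-O is an established line of human clear cell renal carcinoma that lacks a working VHL tumour suppressor. The series has 9 ChIP-seq libraries, 1 per condition, of which 4 are input chromatin. The control group has no treatment in its labels. The siTEAD4 group is so named in its sample title and carries the treatment label siTEAD, an siRNA against TEAD. The vehicle group received the carrier alone, and the last group received XMU-MP-1, a small molecule that inhibits MST1 and MST2, kinases of the Hippo pathway. An antibody against p65 was used in all 4 conditions, and an antibody against TEAD, with no paralogue stated, in the XMU-MP-1 cells. All libraries come from 1 cell line, and with 1 library per condition nothing that differs between conditions could be checked against replicates. The peak identifiers of the siTEAD4-labelled list carry another name, p65_Vert, that no label explains, so the treatment behind these sites rests on the sample label alone.

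p65, the product of RELA, is the transactivating subunit of the most common NF-κB dimer. It waits in the cytoplasm bound to IκB inhibitors and moves to the nucleus when these are degraded, where it binds short κB motifs in promoters and enhancers. TEAD proteins are the DNA-binding partners of YAP and TAZ, which have no DNA-binding domain of their own. MST1 and MST2 start the kinase cascade that keeps YAP out of the nucleus, so their inhibition is known to raise nuclear YAP, whereas an siRNA against a TEAD protein removes a factor that YAP needs to reach DNA. The 2 treatments therefore act on the same pathway at different levels.

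Both treated lists were short. A siTEAD4-labelled peak was found at 14.0% of the 12268 control and vehicle sites, and an XMU-MP-1 p65 peak at 12.6%. Sites with a peak in both numbered 1171, sites with an XMU-MP-1 peak only 371, and sites with neither 10179. The 547 sites were thus 31.8% of the 1718 sites that had a siTEAD4-labelled peak. Each of them had a siTEAD4-labelled peak of its own. The sites were chosen by presence or absence of p65 peaks in 4 lists, so their p65 values are given as a description, with no test. Fold enrichment is the authors' value for a peak summit over the local background of its own library, so folds of different lists do not measure a change.

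The 547 sites were mostly among the stronger peaks of the control and vehicle lists. Their median control fold was 10.6 (interquartile range 7.30 to 14.9) and their median vehicle fold 11.1 (7.85 to 15.4). Their median siTEAD4-labelled fold was 4.72 (4.02 to 5.51), and the highest was 11.4. By −log10 q, 479 of the 547 lay above the median of both reference lists, and 190 lay in the top 10% of both. All 12268 control and vehicle sites also lay high, with a median at percentile 59.4 of the control list and 64.9 of the vehicle list. The median of the 547 was at percentile 87.5 and 88.7. The siTEAD4-labelled list is far shorter, with 1808 peaks, against 15432 for control and 17919 for vehicle, so ranks in it are not set against ranks in those. Within that list 122 of the 547 (22.3%) lay above its median, and of the sites kept in both treated lists 774 (66.1%) did. Sites kept in both were stronger in the references too, with a median control fold of 13.8 (9.64 to 19.1), against 8.05 (5.83 to 11.5) for sites with an XMU-MP-1 peak only and 6.13 (4.91 to 7.99) for sites with neither.

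**Figure D1:**
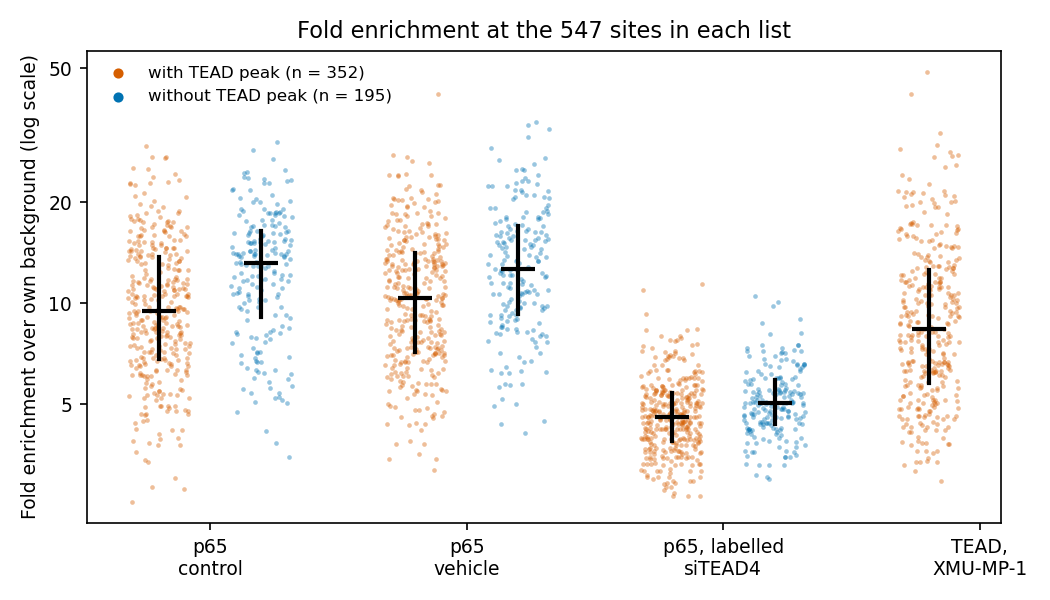
Each point is 1 of the 547 sites, with its authors' fold enrichment over the background of the same library on a log axis, in the control, vehicle and siTEAD4-labelled p65 lists and the TEAD list. Black bars give the median and the interquartile range. Sites without a TEAD peak (blue) had higher medians than sites with one (orange) in all 3 p65 lists, at 13.1 against 9.46 in the control list.

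Fragments over the summits gave the depth behind these peaks. A summit's pileup, the number of fragments over it, follows from the deposited fold and p-value. These pileups are not scaled to a common depth, and only siTEAD4-labelled values are compared between groups of sites. At the 547 sites the median vehicle pileup was 39 fragments (27 to 52) over a local background of 2.53, and the median siTEAD4-labelled pileup was 22 (19 to 26) over a background of 3.75. Sites kept in both had 33 (26 to 42) siTEAD4-labelled fragments over a background of 4.44. The lowest summit pileup in the XMU-MP-1 list was 10.96 scaled fragments, and 90% of its peaks had 17.2 or more. No siTEAD4-labelled fold among the 547 sites was below the lowest XMU-MP-1 fold of 2.62. However, 90% of XMU-MP-1 peaks had a fold of 4.17 or more, and the lower quartile of the 547 siTEAD4-labelled folds was 4.02. At 2 sites the siTEAD4-labelled −log10 q was below the lowest of the XMU-MP-1 list, 1.55. Folds and q-values of different libraries share no scale, so these limits do not show which sites an XMU-MP-1 call could reach. Whether the XMU-MP-1 library carried p65 signal below the calling threshold at these sites was not tested, since the lists give called peaks only. The siTEAD4-labelled peaks were also narrow, with a median length of 225 bp (196 to 275) against 325 bp (257 to 422) at sites kept in both.

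TEAD occupancy was measured in the XMU-MP-1 cells, with an antibody and a library that the choice of sites did not use. The choice did use the p65 list of the same treatment. A TEAD peak lay at 352 of the 547 sites (64.4%, 95% Wilson interval 60.2 to 68.3), beside 50.01% (6135) of all 12268 control and vehicle sites. This share was 77.0% (74.5 to 79.3) at sites kept in both treated lists and 79.5% (75.1 to 83.3) at sites with an XMU-MP-1 peak only, and 45.1% (44.1 to 46.02) at sites with neither. The 547 sites thus had TEAD less often than those kept in both, by −12.7 percentage points (Newcombe interval −17.4 to −8.05), and than those with an XMU-MP-1 peak only, by −15.2 points (−20.8 to −9.28). They had TEAD more often than sites with neither, by 19.3 points (15.1 to 23.3). These intervals cover the counting of sites and treat sites as independent. They carry no replicate error.

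TEAD peaks at the 547 sites were also of lower enrichment than at sites that carried an XMU-MP-1 p65 peak. Where TEAD was called, its median fold was 8.37 (5.80 to 12.5) at these sites, 9.94 (6.46 to 16.02) at sites kept in both and 10.3 (6.85 to 16.3) at sites with an XMU-MP-1 peak only. At sites with neither it was 7.06 (5.15 to 10.8). A TEAD fold of 10 or more was reached by 139 of the 547 sites (25.4%, 21.9 to 29.2), by 38.4% (35.7 to 41.2) of those kept in both and by 12.9% (12.3 to 13.6) of those with neither. Over all control and vehicle sites the share was 16.8%. The order of the 4 classes was therefore the same for how often TEAD was called and for how strongly. The TEAD and XMU-MP-1 p65 libraries come from the same treatment, and whether they share a cell batch or an input is not given in the labels.

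Among the 547 sites the share with TEAD was lower at stronger control peaks. In the weakest quartile of control −log10 q, with a median control fold of 5.87, 106 of 138 sites had a TEAD peak (76.8%, 69.1 to 83.1). In the next quartile 99 of 136 had one (72.8%, 64.8 to 79.6), then 77 of 137 (56.2%, 47.8 to 64.2), and in the strongest quartile, with a median control fold of 17.7, 70 of 136 (51.5%, 43.1 to 59.7). The intervals of the weakest and strongest quartile did not overlap. The median TEAD fold went the same way, from 10.7 in the weakest quartile through 8.71 and 7.52 to 5.71 in the strongest. Sites kept in both, divided at the same control values, went from 86.9% (80.7 to 91.4) to 73.2% (69.3 to 76.8). Sites with neither fell too: in 10 classes by the lower of control and vehicle rank, from 52.0% (49.1 to 54.8) in the weakest to 31.6% (26.8 to 36.8) in the strongest. Over all control and vehicle sites, 650 of 1227 had TEAD in the weakest class and 727 of 1227 in the strongest. Whether the gradients of the classes of site differ was not tested.

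**Figure D2:**
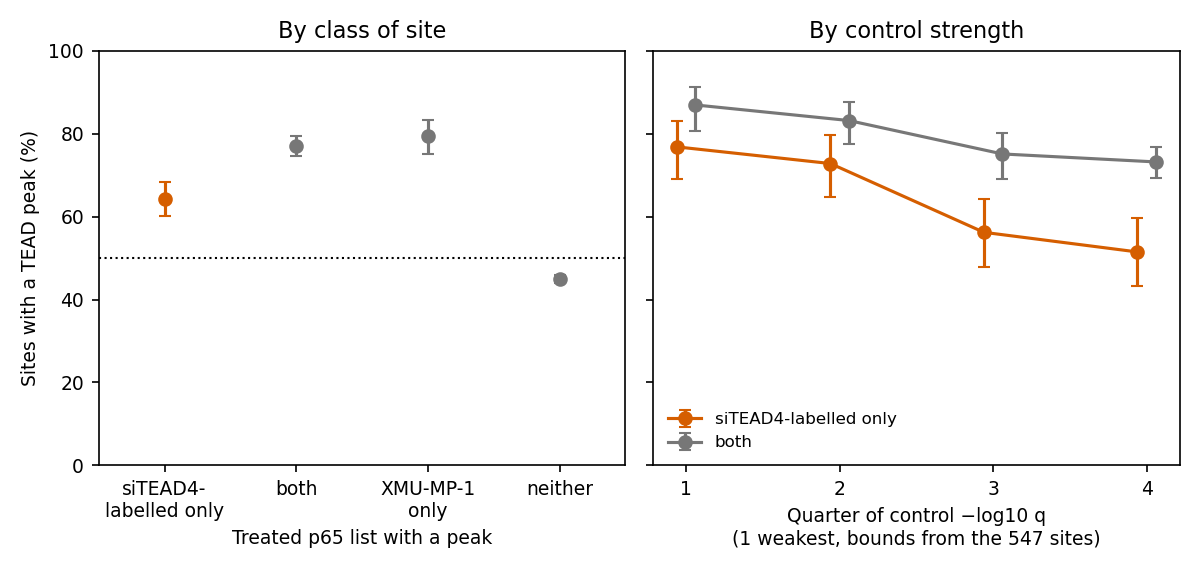
Share of sites with a TEAD peak in percent, with 95% Wilson intervals: left, by the treated p65 lists in which a site had a peak, with all control and vehicle sites as the dotted line at 50.01%; right, by quartile of control −log10 q, for the 547 sites (orange) and sites kept in both (grey). The 547 sites sit at 64.4%, between the sites with an XMU-MP-1 peak and those with neither, and descend from 76.8% to 51.5% with control strength.

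Read from the other side, a site with a siTEAD4-labelled peak lacked an XMU-MP-1 peak more often where no TEAD peak was called. TEAD was profiled in the XMU-MP-1 cells only, so its occupancy in the other cells is not known here. Of 464 such sites without a TEAD peak, 195 (42.03%, 37.6 to 46.6) lacked it. Of 1254 with a TEAD peak, 352 (28.1%, 25.7 to 30.6) lacked it, and the difference was 13.96 points (8.86 to 19.1). Sites were then compared within classes of reference strength, which leave a range of strengths inside each and do not match siTEAD4-labelled strength. The 12268 sites were put in 10 classes by the lower of their control and vehicle ranks, and after their counts were seen the 5 weakest classes were pooled, as were classes 6 and 7. The share was higher without TEAD in each of the 5 resulting groups. Among the single classes it was lower without TEAD in class 1, at 0 of 1 site against 60% of 15, and in class 5, at 50% of 4 sites against 55.6% of 36. In the strongest class 88 of 267 sites without TEAD (32.96%, 27.6 to 38.8) and 89 of 588 with TEAD (15.1%, 12.5 to 18.3) lacked an XMU-MP-1 peak, a difference of 17.8 points (11.6 to 24.2). In the next class the difference was 13.3 points (2.05 to 24.6), in class 8 it was 19.0 points (2.24 to 34.1), and in classes 6 and 7 together 25.2 points (5.88 to 40.8). In the 5 weakest classes it was 9.11 points with an interval of −12.1 to 27.8, which includes 0, on 26 sites without TEAD.

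**Figure D3:**
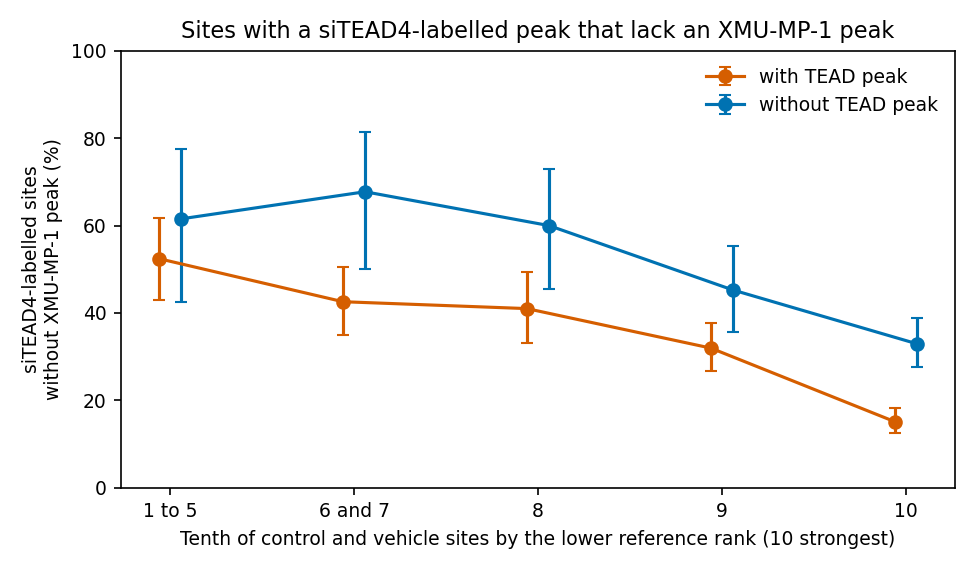
Share of sites with a siTEAD4-labelled peak that lacked an XMU-MP-1 p65 peak, in percent with 95% Wilson intervals, by class of strength in the control and vehicle lists (10 is the strongest; classes 1 to 5, and 6 and 7, are pooled). Sites without a TEAD peak (blue) lie above sites with one (orange) in each of the 5 groups drawn, at 32.96% against 15.1% in the strongest.

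The 195 sites without TEAD were the stronger p65 sites in the references, a direction shared by the other classes of site. There the median control fold without against with TEAD was 16.1 against 13.2 at sites kept in both. It was 9.96 against 7.74 at sites with an XMU-MP-1 peak only and 6.40 against 5.81 at sites with neither. At the 195 sites the median control fold was 13.1 (9.12 to 16.4) and vehicle fold 12.6 (9.29 to 17.0). At the 352 sites with TEAD these were 9.46 (6.84 to 13.7) and 10.4 (7.18 to 14.1). In the siTEAD4-labelled list the medians were 5.03 (4.37 to 5.90) without and 4.58 (3.89 to 5.39) with TEAD, on a median of 22 and 23 fragments. TEAD was often near these sites all the same: the median gap from one of the 195 to the nearest TEAD peak was 11.4 kb, and 92 (47.2%, 40.3 to 54.2) had one within 10 kb, of which 20 within 1 kb. For sites with neither treated peak and no TEAD peak the median gap was 20.8 kb and the share within 10 kb 35.4% (34.2 to 36.7). For sites kept in both and with no TEAD peak these values were 13.1 kb and 44.2% (38.4 to 50.2), an interval that overlaps that of the 195.

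The strongest siTEAD4-labelled peaks among the 547 show both kinds of site. With TEAD, the highest fold was on chromosome 12 from 76099794 to 76100226, where enrichment was 23.3-fold in control, 21.4-fold in vehicle and 11.4-fold in siTEAD4-labelled cells, and 8.58-fold for TEAD. Its siTEAD4-labelled summit held 51 fragments over a background of 3.56, and the nearest XMU-MP-1 p65 peak was 272 kb away. A second one, at 1183699 to 1184291 of chromosome 19, reached 14.6-fold, 24.3-fold and 9.25-fold in those lists and 9.16-fold for TEAD, and lay 2.95 kb from an XMU-MP-1 peak. At 44233242 to 44233612 of chromosome 6 p65 was enriched 20.8-fold, 27.6-fold and 7.90-fold and TEAD only 4.83-fold, and an XMU-MP-1 peak lay 1.68 kb away. Over the 10 such sites with the highest siTEAD4-labelled fold, that fold ranged from 7.79 to 11.4.

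Without TEAD, the highest siTEAD4-labelled fold was 10.5, on chromosome 8 from 65669023 to 65669856, where the control fold was 19.1 and the vehicle fold 20.4. The site on chromosome 10 from 79956677 to 79957223 followed, at 20.03-fold in control, 32.98-fold in vehicle and 10.1-fold in siTEAD4-labelled cells. It was also among the 5 strongest of the 547 by control −log10 q. At 108800633 to 108801179 of chromosome 3 the 3 values were 23.6-fold, 22.4-fold and 8.16-fold, and the nearest XMU-MP-1 peak was 1073 kb away. The widest of the 547 control peaks, on chromosome 19 from 47730295 to 47731519 and 1225 bp long, reached 21.7-fold, 18.9-fold and 8.07-fold. Of the 10 such sites with the highest siTEAD4-labelled fold, 1 was below 10-fold in a reference list: on chromosome 9 from 42251023 to 42251299 the control fold was 3.84, the vehicle fold 10.7 and the siTEAD4-labelled fold 7.49.

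Among the 5 sites with the highest control −log10 q, the siTEAD4-labelled fold ranged from 3.60 to 10.1, beside a median of 4.72 over all 547. The strongest control site by −log10 q, on chromosome 5 from 10563643 to 10564659, was enriched 27.1-fold in control, 21.2-fold in vehicle and 7.12-fold in siTEAD4-labelled cells. An XMU-MP-1 peak lay 11.8 kb away. The site at 134931588 to 134932154 of chromosome 8 had 26.8 and 31.3 in the references and 4.48 in the siTEAD4-labelled list. Its siTEAD4-labelled −log10 q of 7.62, on 28 fragments over a background of 5.48, was above the median of 6.29 over the 547. The one at 209780659 to 209781153 of chromosome 1 had 22.7 and 18.0, and 3.60 in the siTEAD4-labelled list, on 25 fragments over a background of 6.22. Neither of these had a TEAD peak. At 73748194 to 73748740 of chromosome 7 the values were 24.2 and 20.3, and 7.75 in the siTEAD4-labelled list, beside 11.2 for TEAD.

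The 5 strongest TEAD sites among the 547 had control p65 folds from 6.61 to 14.2, on both sides of the median of 10.6 over all 547. At 5631071 to 5631689 of chromosome 7 TEAD was enriched 48.7-fold, on 230 fragments, while p65 reached 6.61-fold in control, 11.1-fold in vehicle and 2.66-fold in siTEAD4-labelled cells. The last was the lowest siTEAD4-labelled fold of all 547 sites, at a local background of 10.7 fragments. At 59608751 to 59609152 of chromosome 1 TEAD reached 42.01-fold, and p65 11.2-fold, 11.4-fold and 4.44-fold. The next 3, on chromosomes 14, 17 and 16, had TEAD folds of 32.04, 29.5 and 28.7. Their p65 folds were 13.4, 14.2 and 7.58 in control and 6.99, 8.83 and 7.87 in vehicle. In siTEAD4-labelled cells these were 4.68, 4.41 and 5.71. All 5 were at least 86.2 kb from an XMU-MP-1 p65 peak, although the TEAD library came from XMU-MP-1 cells.

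In 6 of the 547 sites the siTEAD4-labelled fold was above both reference folds. All 6 had a TEAD peak, beside 64.4% of all 547 sites and 76.8% of those in the weakest quartile of control −log10 q. All 6 lay in that quartile, with control −log10 q from 1.91 to 6.86. Whether the 6 differ from those shares was not tested, and folds of different lists do not measure a change. The 6 were singled out after their values were seen. The clearest, on chromosome 15 from 68132417 to 68132633, was enriched 5.24-fold in control, 6.01-fold in vehicle and 10.97-fold in siTEAD4-labelled cells, the last on 46 fragments over a background of 3.29, and 12.7-fold for TEAD. At 129731699 to 129731926 of chromosome 11 the p65 values were 4.80, 5.76 and 7.19, and TEAD reached 20.6-fold. In the other 4 the siTEAD4-labelled fold lay between 4.95 and 6.16. The control fold was above the siTEAD4-labelled fold at 518 of the 547 sites and the vehicle fold at 531.

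Summits of p65 were close in all 3 lists. The siTEAD4-labelled summit lay 36.5 bp (17.8 to 69.3) from the control summit at the median of the 352 sites with TEAD and 31.0 bp (13.5 to 57.5) at the 195 without. The vehicle summit lay 22.5 bp and 21.0 bp away at the same sites. A siTEAD4-labelled summit within 50 bp of the control summit was found at 61.1% (55.9 to 66.03) of the sites with and 71.8% (65.1 to 77.6) of those without TEAD. At sites kept in both these shares were 71.0% (67.9 to 73.8) and 79.6% (74.3 to 83.9).

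TEAD summits lay close to those of p65. The control p65 and TEAD summits were 58.0 bp apart at the median (29.0 to 127), and 149 of 352 pairs (42.3%, 37.3 to 47.5) were within 50 bp, beside 46.2% over all control and vehicle sites with TEAD. At sites kept in both the median was 56.0 bp and the share 47.1% (43.9 to 50.4), so the difference from the 352 sites was within the counting error. The siTEAD4-labelled p65 summit was nearer to the TEAD summit than the control summit was at 150 sites and farther at 198, with 4 equal. The vehicle summit was nearer at 172 and farther at 172. At sites kept in both the siTEAD4-labelled summit was nearer at 403 and farther at 489 (44.7% nearer, 41.5 to 47.9, against 42.6%, 37.6 to 47.8, at the 352 sites), and the vehicle summit at 409 and 475. The intervals of the 2 groups of sites overlap.

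**Figure D4:**
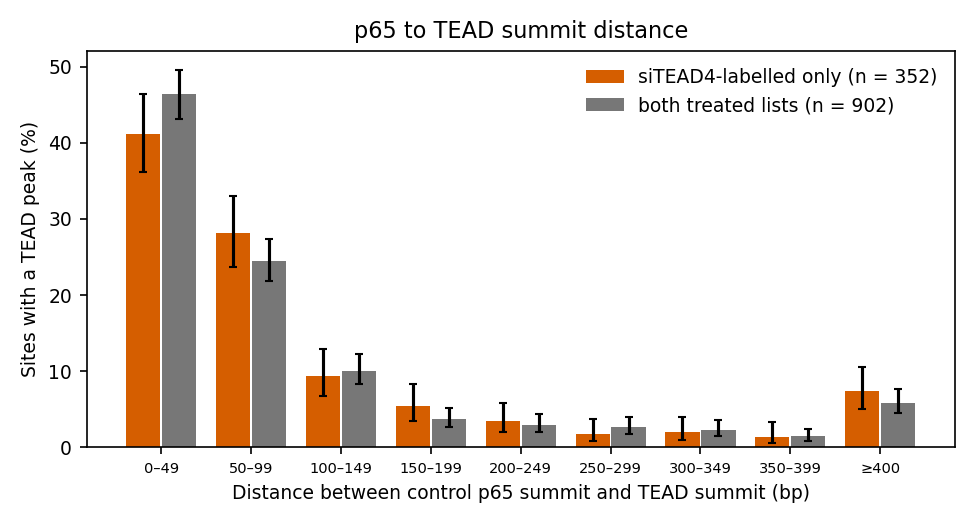
Distance in bp between the control p65 summit and the TEAD summit, as the percent of sites with a TEAD peak in bins of 50 bp (the last holds 400 bp or more) with 95% Wilson intervals, for the 352 sites (orange) and 902 sites kept in both treated lists (grey). Both fall off alike, with 41.2% and 46.3% of pairs less than 50 bp apart and overlapping intervals in each bin.

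The 547 sites were scattered over the genome. The median distance to the next of them was 1032 kb, and joining sites up to 50 kb apart left 488 single sites, 28 pairs and 1 group of 3. Their share of the control and vehicle sites ranged from 2.87% (1.56 to 5.19) on chromosome 20 to 7.21% (3.70 to 13.6) on chromosome 13. All 23 chromosome intervals held the overall 4.46%, so no chromosome stood apart beyond the counting error.

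**Figure D5:**
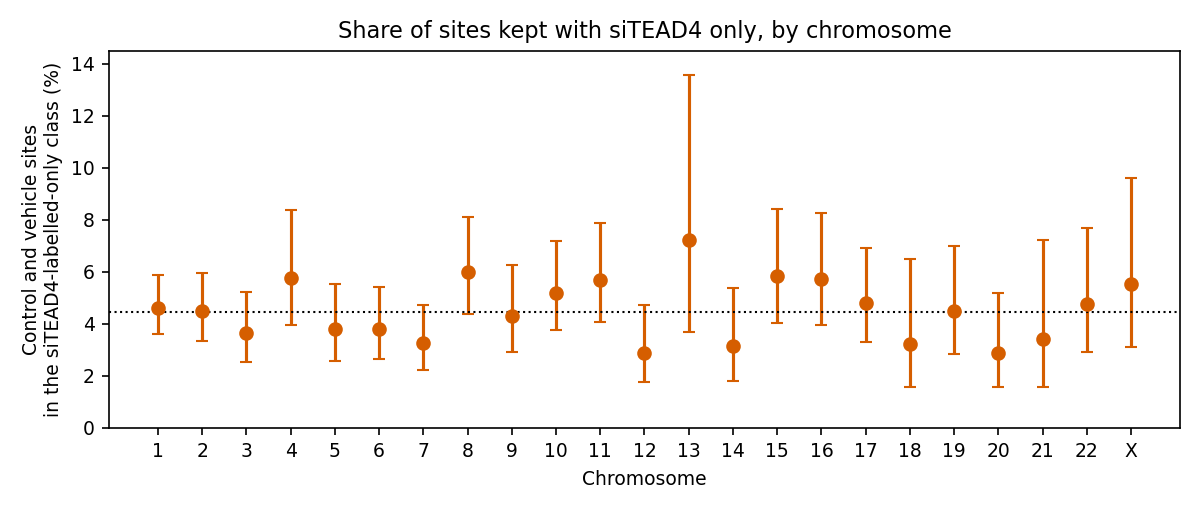
Percent of the control and vehicle sites of each chromosome that belong to the 547 sites, with 95% Wilson intervals, and the share over all chromosomes as the dotted line at 4.46%. Every interval crosses the line, with the widest on chromosome 13, which has 8 of the sites.

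Other p65 sites were often near. Another control and vehicle site was within 10 kb of 250 of them (45.7%, 41.6 to 49.9), against 34.6% (33.6 to 35.5) of the sites with neither treated peak and 52.01% (49.1 to 54.9) of those kept in both. At sites with an XMU-MP-1 peak only the share was 49.1% (44.0 to 54.1), an interval that overlaps that of the 547. Among the 547, such a neighbour was found at 176 of the 352 sites with TEAD (44.8 to 55.2%) and at 74 of the 195 without (37.9%, 31.4 to 44.9). A site kept in both lay within 10 kb of 54 of the 547 (9.87%, 7.65 to 12.7), beside 5.93% of the sites without a siTEAD4-labelled peak. The share was higher at sites with an XMU-MP-1 peak only, at 13.5% (10.4 to 17.3). For sites kept in both, another such site was within 10 kb of 18.5% (16.4 to 20.9). An XMU-MP-1 p65 peak lay within 10 kb of 70 (12.8%, 10.3 to 15.9), beside 7.85% of all control and vehicle sites that had none of their own. It was within 10 kb of 15.1% (11.7 to 19.2) of the sites with TEAD and 8.72% (5.51 to 13.5) of those without, and within 1 kb of 18 and 1 of them.

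The rule turns on overlap, and some sites stood close to its edge. The nearest XMU-MP-1 peak to any of the 547 was 209 bp away, on chromosome 19 at the site from 45195398 to 45195722, and 5 sites had one within 353 bp. All 5 had a TEAD peak, with its summit at −1078, −645, −595, 733 and 970 bp from the control p65 summit (negative towards lower coordinates), where the median distance over the 352 sites was 58.0 bp. At 1 of them, on chromosome 16 from 56640365 to 56640773, the siTEAD4-labelled summit lay 732 bp and the TEAD summit 733 bp from the control summit, both beyond the 409 bp control peak. On the other side, the smallest overlap that placed a site among those kept in both was 146 bp, on chromosome 4 from 175041644 to 175041882, enriched 6.59-fold in siTEAD4-labelled and 5.89-fold in XMU-MP-1 cells. The weakest siTEAD4-labelled peak that still admitted a site, on chromosome 2 from 10540676 to 10540995, had a −log10 q of 1.31 and a fold of 2.84 on 17 fragments, beside control and vehicle folds of 8.19 and 8.87.

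Within 10 kb of 13 of the 547 sites lay a control and vehicle site of the opposite kind, with an XMU-MP-1 peak and no siTEAD4-labelled peak. This was 2.38% (1.39 to 4.02) of them, near the 2.10% (214 of 10179) of sites with neither treated peak and below the 5.72% (4.53 to 7.20) of sites kept in both. In each of the 2 closest pairs both sites lay under 1 TEAD peak. On chromosome 3 the site at 5037265 to 5037611 was enriched 14.6-fold in control and 4.39-fold in siTEAD4-labelled cells. The site at 5036562 to 5037084, 180 bp away, was enriched 16.2-fold in control and 6.43-fold in XMU-MP-1 cells, and their shared TEAD peak 10.3-fold. On chromosome 19 the site at 45195398 to 45195722, with a siTEAD4-labelled fold of 4.37, lay 191 bp from the site from 45194714 to 45195206, with an XMU-MP-1 fold of 5.31. These 2 control peaks, with folds of 8.90 and 6.79, shared 1 vehicle peak with a fold of 13.6 and 1 TEAD peak with a fold of 16.4. The group of 3 sites named above spans the same place, from 45151889 to 45242642 on chromosome 19, and holds 8 control peaks, 3 siTEAD4-labelled peaks, 1 XMU-MP-1 p65 peak and 6 TEAD peaks.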

How the data were processed

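p65 and TEAD ChIP-seq peaks of 786-O cells were compared by position. The submitters' processing notes name fastp, Bowtie2 2.4.5, MACS2 and the build hg19. Caller settings and the pairing of inputs with lists were not given in those sources. Each list holds the peaks of 1 library, and its running peak numbers have gaps, so some were removed earlier. The authors deposited, peak by peak, a fold enrichment (a ratio to local background), a −log10 p-value, a −log10 q-value and a summit position, with a whole-number score that was not used. The lists give no read totals, so the sequencing depth is unknown.

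A site is a control peak, and of several overlapping peaks in another list the one with the highest −log10 q gave the value. Summit pileups were solved from the deposited fold and Poisson p-value, and were whole numbers in the vehicle, siTEAD4-labelled and TEAD lists and multiples of 0.587 in the control list and 0.783 in that of XMU-MP-1, to within 0.02. Intervals of shares are 95% Wilson and of differences Newcombe. With 1 library per condition no test between conditions was possible and no p-value is given. Computation in Python 3.11.15 (scipy 1.17.1, pandas 2.3.3, numpy 2.4.6) was tested on simulated peaks.

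Sites were named by rank: the 10 with and 10 without TEAD highest in siTEAD4-labelled fold, the 5 extremes of control and siTEAD4-labelled −log10 q and of TEAD fold, and those nearest the edge of the rule; the text gives a selection of them. The rule's parts on genes, and the planned start-site and motif shares, were not run, because no hg19 genome or annotation was used here. The members and lists were chosen with earlier results of these data known.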

Additional observations from a re-analysis of the deposited data

How the results depend on the processing

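Of 50 values recomputed under other settings, 43 fell inside the 95% interval of the value in the text (or, for the number of sites, within 1.5 times of it), 7 moved and none of the 34 differences changed sign. Limiting all 4 p65 lists to peaks whose −log10 q reached 10 left 256 sites that met the rule, since the lists then hold fewer peaks. The TEAD share of the sites was 44.4% when TEAD peaks had to reach a −log10 q of 10 and 54.8% with summits within 200 bp, settings that count fewer TEAD peaks. The difference in TEAD share from sites with neither treated peak was 15.02 points when siTEAD4-labelled peaks had to reach a −log10 q of 5, 14.3 with TEAD summits within 200 bp, and 26.8 and 27.1 at equal classes of control −log10 q and of the lower reference rank; the cause was not tested. At equal siTEAD4-labelled −log10 q, a setting chosen after seeing the data, as were the pooled strength classes, the difference from sites kept in both was −14.2 points (−19.4 to −8.97). Start sites and motifs could not be examined. No paired analysis was possible because only 1 library was made per condition.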

Other observations

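A few of the 547 sites lay on unusually high local background. The largest siTEAD4-labelled pileup of all, 87 fragments, was on chromosome X from 155260113 to 155260310, over a background of 32.0, where enrichment was 2.80-fold in control, 3.88-fold in vehicle and 2.67-fold in siTEAD4-labelled cells. At 18965291 to 18965701 of chromosome 17 there were 52 siTEAD4-labelled fragments over a background of 12.4, and a TEAD fold of 20.04.

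The highest vehicle fold among the 547 sites, 41.9, was on chromosome 17 from 73873185 to 73873706. There the control value was 29.4, the siTEAD4-labelled value 5.37 and that of TEAD 3.37. A site at 56640365 to 56640773 of chromosome 16 differed most plainly between the references among the sites named by siTEAD4-labelled fold, at 4.40-fold in control and 13.3-fold in vehicle cells. Its siTEAD4-labelled peak was enriched 7.99-fold and its TEAD peak 21.5-fold. Their summits lay 732 and 733 bp from the control summit, beyond the control peak, so these folds and the control fold belong to different summits. An XMU-MP-1 p65 peak lay 353 bp from the control peak.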
